A study of Mus musculus with 4 samples.

Results

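The genes described here encode type 2 cytokines and lymphoid growth factors. They are *Il4*, *Il5*, *Il13*, *Il9*, *Il6*, *Il10*, *Il2*, *Csf2*, *Areg* and *Flt3l*, chosen by their gene symbols, and they are 10 of the 24537 genes in the files. Their RNA was measured in group 2 innate lymphoid cells (ILC2s) from bronchoalveolar lavage (BAL) fluid, the cells washed out of the airways, in 2 libraries after IL-33 and 2 after chronic house dust mite (HDM) exposure. IL-33, an alarmin released by damaged epithelium that acts directly on ILC2s, was given into the nose 3 times at 0.5 µg. HDM, an allergen extract that also engages T cells, was given 3 times a week for 5 weeks at 25 µg. In both groups the cells were sorted 1 day after the final challenge as Lineage-Sca-1+YFP+ lymphocytes from GATIR mice of 8 to 16 weeks on a C57BL/6 background, which carry an IRES-YFP reporter in *Gata3*. According to the labels the IL-33 mice were Gata3-YFP/YFP and the HDM mice Gata3-YFP/WT, with the populations named CD25High and CD25Low. The methods of the study speak of homozygous mice alone and of no sort on CD25, so treatment, reporter genotype and CD25 class cannot be told apart if the labels hold. The labels speak of biological replicates, but how many mice a library holds is not given in the sources used here, so that p-values here reflect the spread between libraries, which may be technical.

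ILC2s are tissue-resident lymphocytes without antigen receptors that answer epithelial alarmins within hours, and IL-5 and IL-13 are their signature products in the lung. IL-5 drives eosinophil production and survival, IL-13 acts on airway epithelium and smooth muscle, and IL-4 promotes Th2 differentiation and the IgE switch. *Il4*, *Il13* and *Il5* lie together with the DNA repair gene *Rad50* in the Th2 cytokine locus, and *Csf2*, which encodes GM-CSF, lies farther along the same chromosome. In the files' coordinates (mm10, counted from base 1) the genes of the locus lie at chr11:53612461-53617338 for *Il4*, chr11:53631323-53634702 for *Il13*, chr11:53720794-53725103 for *Il5* and chr11:54247270-54249899 for *Csf2*. The remaining genes are elsewhere, with *Il9* at chr13:56479277-56482246, *Il6* at chr5:30013114-30019975, *Areg* at chr5:91139599-91148432, *Il10* at chr1:131019845-131024970, *Il2* at chr3:37120716-37125954 and *Flt3l* at chr7:45131189-45136432. IL-9 supports mast cells and the survival of ILC2s themselves, amphiregulin (*Areg*) acts on epithelial repair through the EGF receptor, and Flt3 ligand (*Flt3l*) sustains dendritic cells and early lymphoid progenitors.

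The libraries held 10696041 to 12054781 reads in genes after IL-33 and 15650721 to 16092269 after chronic HDM. Genes with a read numbered 12895 to 13102 after IL-33, and 10675 and 12134 in chronic HDM replicates 1 and 2. Values are RPKM, mapped reads divided by exon length and by library depth, so levels can be set side by side between genes. The 45S ribosomal RNA row took 3.45% to 4.95% of the reads in genes after IL-33 and 17.4% to 25.4% after chronic HDM. On the log2(RPKM + 1) scale the IL-33 libraries correlated across genes with r = 0.981 and the HDM libraries with r = 0.891 (14448 genes, which are not independent replicates), so spread was wider after chronic HDM. All 12 ILC2 markers had reads in every library. Of the 9 T cell markers *Cd4*, *Cd8a*, *Cd8b1* and *Cd5* had no reads in any library, *Cd3g* stood at 68.8 to 101 RPKM in the 4 libraries, and *Cd3d*, *Cd3e*, *Cd28* and *Themis* stayed at 2.83 RPKM or less. Macrophage markers summed to 1242 and 283 RPKM after IL-33 and to 3105 and 8505 RPKM after chronic HDM, with 5 of 10 higher in both HDM libraries, *Fcgr1* without reads everywhere, and *Chil3* and *Lyz2* making up most of the sum. Dendritic cell markers summed to 1955 and 1971 RPKM after IL-33 against 158 and 256, with 5 of 9 higher in both IL-33 libraries and *Cd209a* without reads everywhere. The MHC class II genes *H2-Ab1* (1063 and 1030 against 59.5 and 80.1 RPKM) and *Cd74* (858 and 906 against 85.7 and 161 RPKM), which ILC2s can express themselves, carried most of this sum, and *Itgax* was higher in both chronic HDM libraries. The lineage antibodies of the sort included CD11b, CD11c, Gr-1 and FcεRIα, a gate meant to remove macrophages, dendritic cells, basophils and mast cells. In such bulk libraries fewer cells of a type and less RNA per cell cannot be told apart.

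The stretch of 250 bases before the RefSeq start site (GRCm38.p6) is shown for *Il5*, *Il13* and *Il4*, the neighbours in the Th2 locus that did not move alike, for *Il9*, which had reads only after IL-33, and for *Areg*, which was higher after chronic HDM. RefSeq promoters matched 9 of the 10 genes. Each sequence runs 5′ to 3′ on the gene's own strand. Capitals mark matches, on either strand, to a GATA motif (AGATAA or AGATAG, or the same with T as the opening letter, TGATAA or TGATAG), an NFAT core (TGGAAA), an AP-1 motif (TGANTCA), a STAT motif (TTCNNNGAA) or a cAMP response element (TGACGTCA). The last of these was added after the *Areg* letters had been seen.
*Il5*, chr11:53720544-53720793, plus strand: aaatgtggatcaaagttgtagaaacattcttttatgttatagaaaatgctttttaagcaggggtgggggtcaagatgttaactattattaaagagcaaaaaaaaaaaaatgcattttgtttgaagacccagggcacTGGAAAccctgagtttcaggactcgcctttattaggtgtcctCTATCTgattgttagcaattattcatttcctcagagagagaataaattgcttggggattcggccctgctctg
*Il13*, chr11:53634703-53634952, minus strand: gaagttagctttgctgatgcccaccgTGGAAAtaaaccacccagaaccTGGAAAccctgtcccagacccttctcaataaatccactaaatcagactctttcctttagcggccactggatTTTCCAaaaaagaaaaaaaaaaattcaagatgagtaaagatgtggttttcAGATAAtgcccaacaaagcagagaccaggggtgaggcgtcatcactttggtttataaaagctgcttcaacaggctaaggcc
*Il4*, chr11:53618666-53618915, minus strand: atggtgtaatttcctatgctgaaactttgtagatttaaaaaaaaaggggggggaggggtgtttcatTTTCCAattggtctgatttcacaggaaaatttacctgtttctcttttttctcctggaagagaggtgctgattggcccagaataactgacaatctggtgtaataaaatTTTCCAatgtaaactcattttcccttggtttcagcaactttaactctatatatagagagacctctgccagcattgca
*Il9*, chr13:56482258-56482507, minus strand: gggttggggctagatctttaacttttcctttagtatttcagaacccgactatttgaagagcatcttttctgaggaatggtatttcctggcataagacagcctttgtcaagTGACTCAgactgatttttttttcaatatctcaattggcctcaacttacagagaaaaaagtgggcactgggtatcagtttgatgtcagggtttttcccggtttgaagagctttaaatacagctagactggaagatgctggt
*Areg*, chr5:91139349-91139598, plus strand: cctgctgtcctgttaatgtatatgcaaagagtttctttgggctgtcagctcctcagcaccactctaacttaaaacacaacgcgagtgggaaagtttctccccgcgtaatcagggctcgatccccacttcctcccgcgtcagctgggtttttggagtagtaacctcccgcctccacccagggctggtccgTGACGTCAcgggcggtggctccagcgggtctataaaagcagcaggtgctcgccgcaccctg

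*Il5* and *Il13* each held 1 GATA match, beginning 72 and 81 bases before the start, and *Il5* held 1 and *Il13* 3 matches to the NFAT core. The *Il4* window shown, before the start of the coding transcript, held 2 NFAT cores and no GATA match, while the window before the start of the transcript counted in the files (chr11:53617339-53617588) held 1 GATA match, 80 bases before that start, and no NFAT core. The *Il9* window held 1 AP-1 match, 140 bases before the start, and the *Areg* window held 1 cAMP response element, 61 bases before its start. The start used for *Il9*, chr13:56482257, is not that of the transcript counted in the files, which begins at chr13:56482246. None of these 5 windows held a STAT match. Over all 32851 RefSeq promoter windows of this length, 26.5% held a GATA match, 18.6% the NFAT core, 6.75% the AP-1 motif, 7.02% the STAT motif and 1.55% the cAMP response element. These are matches of letters, and binding was not measured.

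**Figure D1:**
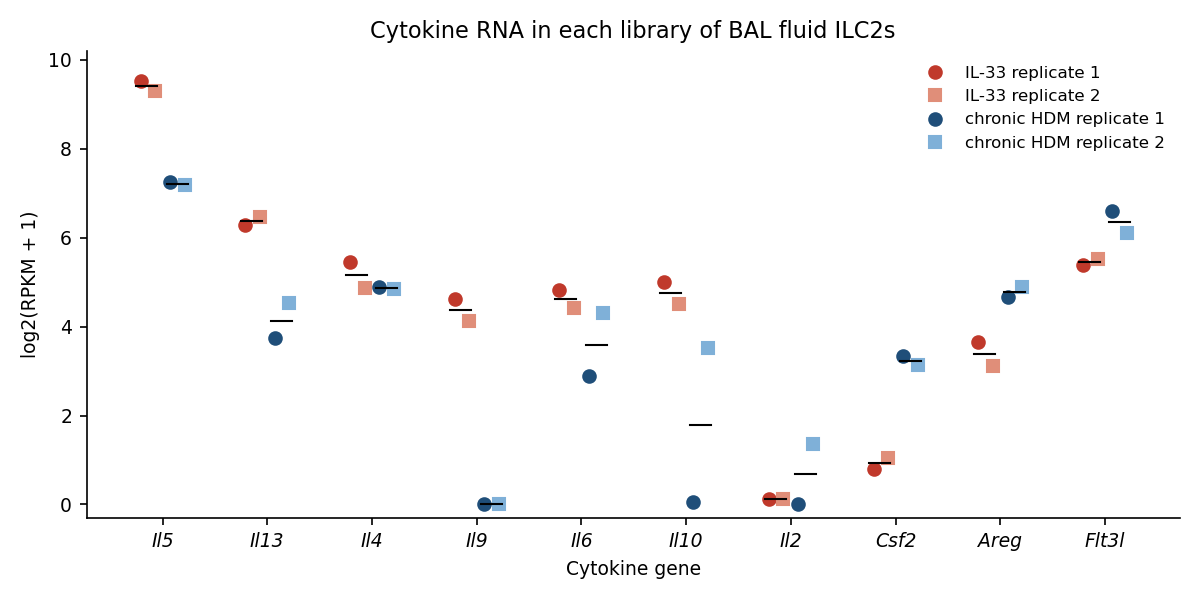
Levels of the 10 cytokine genes as log2(RPKM + 1), with a point per library and a bar at the mean of each group (n = 2). *Il5*, *Il13* and *Il9* sat higher in both IL-33 libraries, *Csf2*, *Areg* and *Flt3l* in both chronic HDM libraries, and the groups overlapped for *Il4* and *Il2*.

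Of the type 2 cytokines, *Il5* was by far the most abundant and was higher after IL-33. It reached 738 and 626 RPKM after IL-33 against 151 and 145 RPKM after chronic HDM, which placed it at ranks 60 and 68 of all genes by RPKM in the former libraries and at 386 and 367 in the latter. The groups were far apart and the replicates of each group close together. Mean *Il5* was 682 ± 79.0 RPKM after IL-33 and 148 ± 4.26 after chronic HDM (SD, n = 2), a 4.62-fold difference. The fitted *Il5* difference on the log2(RPKM + 1) scale was 2.20 ± 0.16 (SE), with an adjusted p of 0.00665 from limma over 9523 genes. Without IL-33 replicate 1 or 2, the fitted *Il5* difference was 2.08 or 2.31. The error of such a fit comes from the chronic HDM libraries alone, so it says little about how sure the difference is.

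*Il13* differed from chronic HDM by about the same factor as *Il5*, but less surely. It stood at 76.6 and 86.6 RPKM after IL-33 and at 12.4 and 21.9 RPKM after chronic HDM, without overlap. Its mean was 4.75-fold higher after IL-33, and the fitted log2 difference was 2.23 ± 0.33 (SE), with an adjusted p of 0.0132 from limma. *Il13* therefore missed the threshold of 0.01 taken from the study and passed at 0.05. Without chronic HDM replicate 1 or 2 its log2 difference was 1.85 or 2.62, and without IL-33 replicate 1 or 2 it was 2.32 or 2.14. With 1 library left in a group, the error of the fit comes from the other group alone.

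*Il4* did not show this pattern. It stood at 42.4 and 28.1 RPKM after IL-33 and at 28.5 and 27.7 RPKM after chronic HDM. The lower IL-33 library fell between the chronic HDM libraries. The fitted log2 difference was 0.29 with a 95% interval from -0.46 to 1.04 (adjusted p = 0.530, limma), and it turned to -0.09 under quantile normalization. For the transcript counted, that interval excludes a difference of the size fitted for *Il5*. The row counted for *Il4* is NR_027491, a transcript of 3 exons that begins inside the coding gene. It shares 347 bases with the coding transcript NM_021283, takes in 2 of its 4 exons and has 258 bases outside it. The RPKM of *Il4* thus rests on part of the coding RNA, and its level against other genes is uncertain. The comparison between libraries uses the same exons in each. How reads divide between the coding transcript and other RNA of the gene in each group was not tested.

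*Il9* had reads after IL-33 only. It stood at 23.7 and 16.6 RPKM (164 and 103 reads) after IL-33, and both chronic HDM libraries had 0 reads, where 3 reads, the limit that a count of 0 allows, correspond to 0.302 RPKM on average. The mean was thus at least 66.7-fold higher after IL-33, with this limit of 3 reads per library in place of 0. *Il9* entered the fit through the IL-33 libraries alone, and its adjusted p from limma was 0.00723, or 0.324 and 0.297 without IL-33 replicate 1 and 2. The basophil and mast cell markers, whose cells respond to or make several of these cytokines, summed to 52.5 and 46.8 RPKM after IL-33 and to 0 and 9.96 RPKM after chronic HDM. Most of this was *Mcpt8*, a basophil protease, at 45.8 and 39.2 RPKM after IL-33 and without reads after chronic HDM, whereas 4 of the 10 markers, *Ms4a2*, *Gata2*, *Prss34* and *Tpsb2*, had no reads in any library. The lineage antibodies included FcεRIα, which marks these cells, and their part in the values of *Il9* and *Il4* was not tested.

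The cytokines with broader roles differed mainly between the chronic HDM libraries themselves. *Il10*, which encodes an inhibitory cytokine, stood at 30.8 and 21.8 RPKM after IL-33 and at 0.040 and 10.4 RPKM after chronic HDM. The value of 0.040 is 1 read, with an exact Poisson 95% interval of 0.0010 to 0.223 RPKM for counting error only, while replicate 2 held 249 reads. *Il6*, which encodes a cytokine of acute inflammation, stood at 27.5 and 20.4 RPKM after IL-33 and at 6.38 and 18.7 RPKM after chronic HDM. The groups did not overlap for either gene. For *Il6* chronic HDM replicate 2 came close to the lower IL-33 library, and for *Il10* it stood at 10.4 against 21.8 RPKM.

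*Il10* had a fitted log2 difference of 2.97 ± 1.11 (SE) and *Il6* of 1.03 ± 0.53, with adjusted p of 0.117 and 0.220 from limma. Without chronic HDM replicate 2 the log2 difference was 4.70 for *Il10* and 1.74 for *Il6*. Without replicate 1 these differences were 1.24 and 0.32. The error of such a fit comes from the IL-33 libraries alone and leaves out the wider spread after chronic HDM. *Il2*, the T cell growth factor that ILC2s receive through CD25, had 1 read in each IL-33 library, 0 reads in chronic HDM replicate 1 and 27 reads (1.56 RPKM) in chronic HDM replicate 2. It was the only member under the minimum mean of 2 RPKM and was not tested. All 3 genes were higher in chronic HDM replicate 2 than in replicate 1, as was the macrophage marker sum given above. Of those markers *Adgre1* (9.25 and 3.43 RPKM in replicates 1 and 2) and *Mertk* (12.8 and 7.88 RPKM) ran the other way. The other macrophage markers with reads there were higher in replicate 2. The basophil and mast cell, dendritic cell, T cell and epithelial marker sums were also higher in replicate 2. The ILC2, B cell, eosinophil and neutrophil sums were lower there. Fewer genes had a read in replicate 1 (10675) than in replicate 2 (12134), and the part of this in the values was not tested. The lineage gate was set against CD11b+, CD11c+ and Gr-1+ cells, and the part of other cells in the values of the 3 genes was not tested.

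The growth factors were higher in both chronic HDM libraries. *Csf2* stood at 0.743 and 1.08 RPKM (10 and 13 reads) after IL-33 and at 9.17 and 7.73 RPKM (181 and 146 reads) after chronic HDM. It was near the limit of detection in the former and at a moderate level in the latter, with means 9.28-fold apart. The fitted log2 difference, which the pseudocount of 1 RPKM shrinks for such low values, was -2.31 ± 0.46 (SE; adjusted p = 0.0255, limma), past 0.05 and not past 0.01. *Csf2* passed the minimum mean of 2 RPKM only through the chronic HDM libraries. Its log2 difference was -2.20 or -2.42 without chronic HDM replicate 1 or 2, and -2.18 or -2.43 without IL-33 replicate 1 or 2.

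*Areg* stood at 11.5 and 7.69 RPKM after IL-33 and at 24.5 and 28.8 RPKM after chronic HDM. Chronic HDM was 2.78-fold higher by the means, with no overlap, and the fitted log2 difference was -1.40 ± 0.34 (SE; adjusted p = 0.0419, limma). *Flt3l* stood at 41.0 and 44.8 RPKM after IL-33 and at 95.2 and 68.1 RPKM after chronic HDM. The mean of *Flt3l* was 1.90-fold higher after chronic HDM, and its log2 difference of -0.89 ± 0.26 (SE) passed neither threshold (adjusted p = 0.0631, limma), with -1.13 (adjusted p = 0.00582) without chronic HDM replicate 2 and -0.66 (adjusted p = 0.0300) without replicate 1. The transcript counted for *Flt3l*, NR_102725, shares 975 bases with the coding transcript and touches 8 of its 9 exons.

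In all, 2 of the 9 members tested, *Il5* and *Il9*, were called higher after IL-33 (adjusted p under 0.01, log2 difference over 1), where 2.80% of all 9523 genes were called in that direction. None of the 9 was called higher after chronic HDM by limma, where 0.536% of all genes were. Limma-voom called no gene in either direction, so it cannot tell the members from other genes. *Il9* and *Csf2* passed the minimum level only through the group in which they were higher, so their tests add little to these counts. At an unadjusted p under 0.05 from limma, *Csf2*, *Areg* and *Flt3l* were higher after chronic HDM, 3 of the 9 against 11.2% of all genes, and *Il5*, *Il13*, *Il9* and *Il10* were higher after IL-33, 4 of the 9 against 25.5%. Without IL-33 replicate 1 or 2, the adjusted p of each of the 9 was 0.297 or more. At an adjusted p under 0.05, 3 members (*Il5*, *Il9* and *Il13*) were higher after IL-33 against 13.8% of all genes, and 2 (*Csf2* and *Areg*) were higher after chronic HDM against 4.78%. The IL-33 libraries lay above both chronic HDM libraries for 5 members (41.7% of all genes) and below them for 3 (23.5% of all genes). The median log2 difference was 1.03 over the 9 members and 0.28 over all genes. Both IL-33 calls were lost in limma-voom on recovered reads, without the intensity trend, with a pseudocount of 0.1 RPKM and with no minimum level. No gene at all was called in these settings. The call of *Il9*, though not that of *Il5*, was also lost under median-of-ratios scaling and under scaling without 45S ribosomal RNA.

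**Figure D2:**
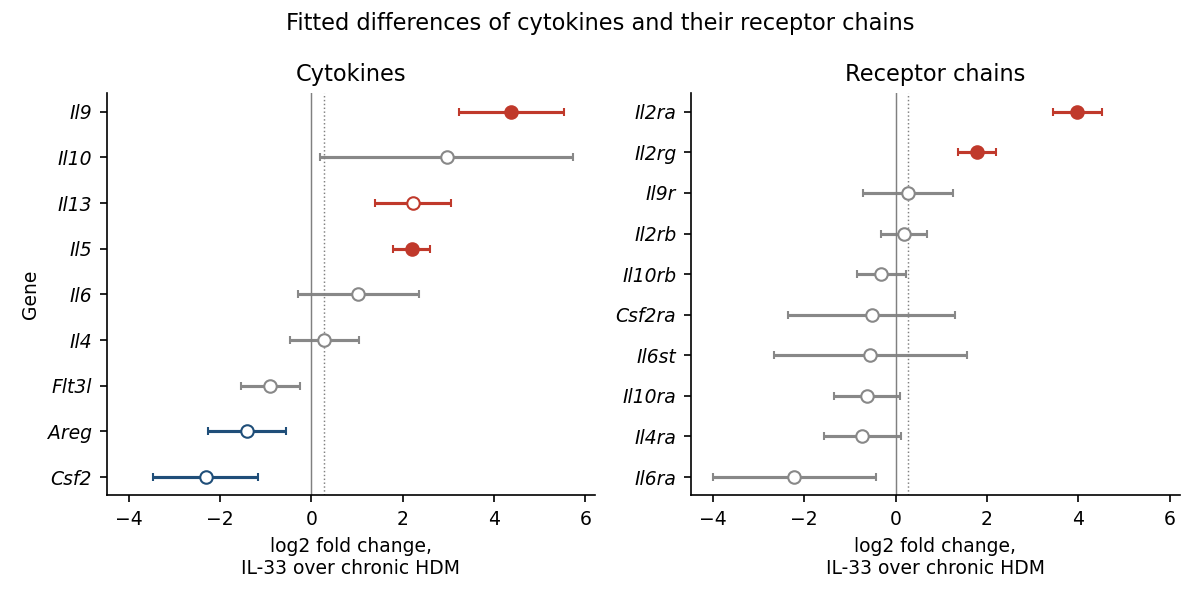
Fitted differences on the log2(RPKM + 1) scale, positive where IL-33 was higher, with 95% intervals from limma, for the 9 cytokines tested (left) and the 10 receptor chains tested (right). Filled points passed an adjusted p under 0.01, coloured open points under 0.05 only, grey points neither, and the dotted line is the median of all genes at 0.28. The point of *Il9*, without reads after chronic HDM, depends on the pseudocount.

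The relative make-up of the cytokine RNA within a library does not depend on how libraries are scaled to each other. The 10 genes summed to 992 and 854 RPKM after IL-33 and to 327 and 330 RPKM after chronic HDM, 2.81-fold apart. Unlike shares, these sums do depend on scaling. Of all RPKM without the 45S row, the 10 genes made up 0.215% and 0.189% after IL-33 against 0.0917% and 0.0980%. *Il5* made up 74.4% and 73.4% of the sum of the 10 genes after IL-33 against 46.1% and 43.9% after chronic HDM. Its mean share was 28.9 percentage points higher after IL-33, with SDs of 0.70 and 1.56 (n = 2) and no overlap, and with an exact permutation p of 0.333 (two-sided), the smallest that 2 against 2 libraries allow. This limit holds for every share and ratio given here. Over the 10 shares compared, 7 reached it (adjusted p = 0.476), and *Il6*, *Il10* and *Il2* had p of 1.

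*Il13* was second in both IL-33 libraries, with 7.72% and 10.1% of the sum, whereas *Flt3l* was second in both chronic HDM libraries. The share of *Flt3l* was 29.1% and 20.7% after chronic HDM and 4.13% and 5.25% after IL-33. *Areg* followed the same order, with 7.50% and 8.73% after chronic HDM against 1.16% and 0.90%. *Il4*, whose level barely differed, took 8.71% and 8.40% of the smaller sum after chronic HDM and 4.28% and 3.29% of the larger sum after IL-33. *Csf2* took 2.80% and 2.34% after chronic HDM and 0.075% and 0.126% after IL-33. The 4 members of the Th2 locus window together made up 86.4% and 86.9% of the sum after IL-33 against 61.4% and 61.3% after chronic HDM.

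The picture of a smaller output after chronic HDM is tied to the genes summed. With 38 other cytokine genes added, the sums were 1739 and 1509 RPKM after IL-33 against 1390 and 1082 RPKM after chronic HDM, 1.31-fold apart. *Ltb*, which encodes lymphotoxin beta, was the only called gene of these 38, at 174 and 193 RPKM after IL-33 against 662 and 520 RPKM after chronic HDM (log2 difference -1.67 ± 0.19 SE, adjusted p = 0.00795, limma). Of the 38, 15 were tested, and 0.536% of all genes were called higher after chronic HDM. In that wider sum *Il5* took 42.5% and 41.5% after IL-33 against 10.8% and 13.4%. The *Il4* share overlapped there, at 2.44% and 1.86% against 2.05% and 2.56% (exact permutation p = 0.667), and the differences of *Flt3l* and *Areg* narrowed from -20.2 to -3.91 and from -7.09 to -1.63 percentage points.

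**Figure D3:**
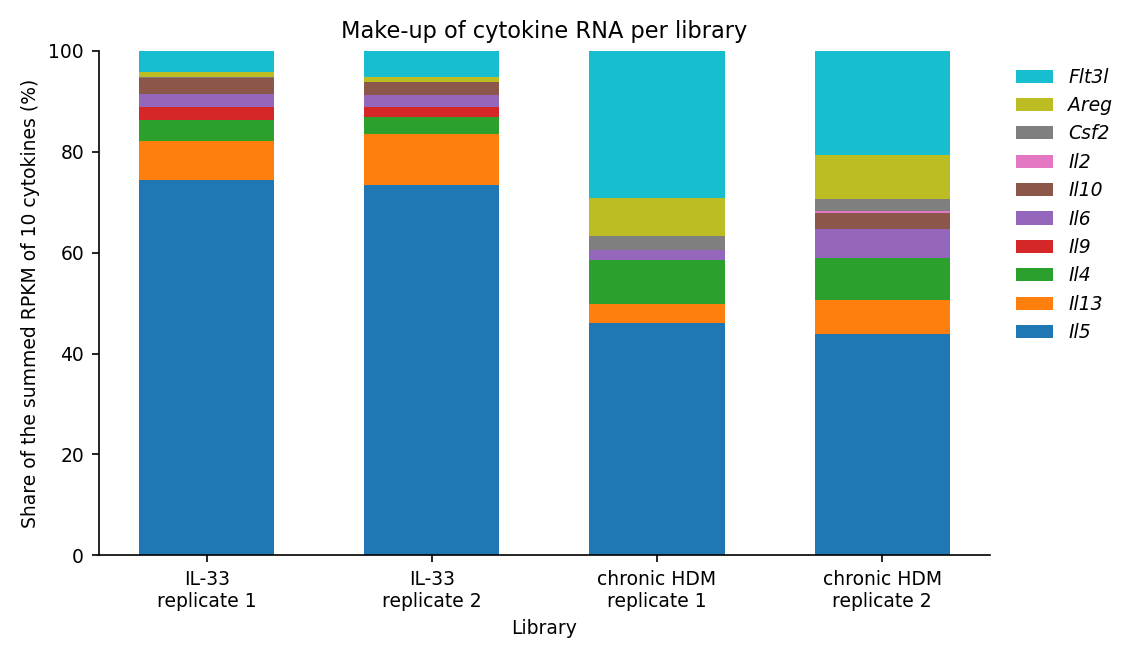
Share of each cytokine gene in the summed RPKM of all 10, in percent, with a bar per library. *Il5* fills about the same part of both IL-33 bars (74.4% and 73.4%) and a smaller part of both chronic HDM bars (46.1% and 43.9%), where *Flt3l*, *Areg* and *Csf2* take more.

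Among the genes whose ratio to *Il5* within a library was computed, *Il13* alone had overlapping groups. *Il9*, *Il10* and *Il2* were not among them. The log2 ratio of *Il13* to *Il5* was -3.27 and -2.85 after IL-33 against -3.60 and -2.72 after chronic HDM. The chronic HDM values enclosed the IL-33 values, and the difference of the means was 0.10 (exact permutation p = 1, two-sided). In linear terms there were 9.64 and 7.23 RPKM of *Il5* per RPKM of *Il13* after IL-33, with 12.1 and 6.60 in the chronic HDM libraries. The log2 ratio of *Il4* to *Il5* was -4.12 and -4.48 after IL-33 against -2.40 and -2.39 after chronic HDM, a difference of -1.91 without overlap (exact permutation p = 0.333).

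Of the ratios to *Il5* that were computed, those of the growth factors differed most. The log2 ratio of *Csf2* to *Il5* was -9.96 and -9.18 after IL-33 against -4.04 and -4.23 after chronic HDM, a difference of -5.44, the widest of the ratios computed. *Areg* and *Flt3l* differed by -3.70 and -3.11, also without overlap. *Areg* and *Csf2*, both higher after chronic HDM, also differed in their ratio to each other, which was 3.95 and 2.83 on the log2 scale in the IL-33 libraries and 1.42 and 1.90 in the chronic HDM libraries, without overlap. *Il6* to *Il5* differed by -1.09, with chronic HDM replicate 1 at -4.56 close to the IL-33 libraries at -4.75 and -4.94 and replicate 2 at -2.95. Each of these comparisons had an exact permutation p of 0.333, or 0.37 adjusted over the 10 ratios compared.

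**Figure D4:**
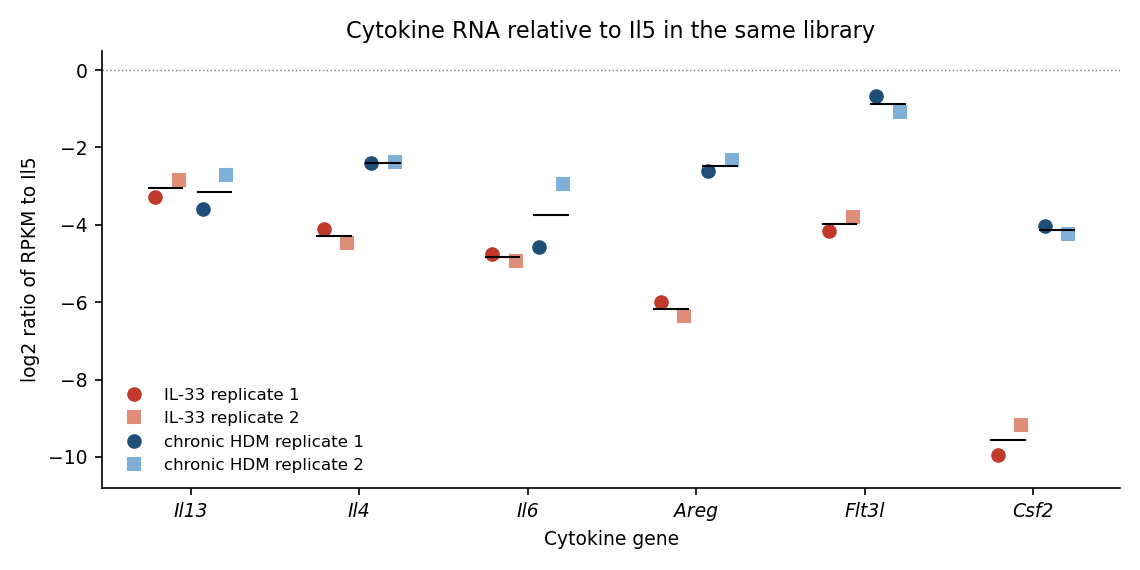
log2 ratio of the RPKM of each gene to that of *Il5* in the same library, with a point per library and a bar at the group mean (n = 2). The groups overlap for *Il13* and are apart for *Il4*, *Il6*, *Areg*, *Flt3l* and *Csf2*.

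The neighbours of these genes were read from a window of the files' coordinates (mm10, chr11:53412461-54449899), which spans *Il4* to *Csf2* and 200 kb on either side. It held 24 genes, 4 of them members, and 5 had no reads in any library. *Il3*, the myeloid growth factor gene next to *Csf2*, was among those without reads, together with *Shroom1*, *Sowaha*, *Mir7671* and *Acsl6*. Of 11 genes that passed the minimum, *Il5* alone was called at 0.01, and 5 passed at 0.05: *Uqcrq*, *Kif3a*, *Il13* and *Il5* higher after IL-33 and *Csf2* higher after chronic HDM. Among all genes, 2.80% were called higher after IL-33 at 0.01. At 0.05 the shares were 13.8% higher after IL-33 and 4.78% higher after chronic HDM. The median log2 difference of the 7 neighbours tested was 0.73, beside 0.28 over all genes.

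*Kif3a*, a kinesin motor gene on the far side of *Il4* from *Il13*, stood at 21.9 and 20.5 RPKM after IL-33 and at 5.70 and 5.80 RPKM after chronic HDM. Its fitted log2 difference was 1.72 ± 0.33 (SE; adjusted p = 0.0228, limma), past 0.05 like that of *Il13*, while the groups overlapped for *Il4* between them. *Rad50*, which lies between *Il13* and *Il5* and whose introns are known to hold the locus control region, stood at 38.0 and 40.5 RPKM after IL-33 and at 28.6 and 16.7 RPKM after chronic HDM. Its log2 difference of 0.81 ± 0.34 (SE) did not pass (adjusted p = 0.145, limma). Relative to *Il5*, *Rad50* was lower after IL-33 by 1.36 on the log2 scale, without overlap (exact permutation p = 0.333).

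*Irf1*, an interferon-induced transcription factor gene that follows *Il5* in the order of the chromosome, was at 55.7 and 57.5 RPKM after IL-33 and at 109 and 87.9 RPKM after chronic HDM. It ran opposite to *Il5* without passing the test (log2 difference -0.78 ± 0.22 SE, adjusted p = 0.0597, limma). *Sept8*, a septin gene, was at 14.3 to 18.7 RPKM in all 4 libraries. *Uqcrq*, a subunit gene of mitochondrial complex III, stood at 195 and 150 RPKM after IL-33 and at 74.6 and 49.1 RPKM after chronic HDM (log2 difference 1.48 ± 0.28 SE, adjusted p = 0.0226, limma). *Gm12216* and *P4ha2* were tested and had adjusted p of 0.303 and 0.570.

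The rest of the window was under the minimum mean and was not tested. *Pdlim4* reached 3.24 RPKM in chronic HDM replicate 2 with no reads elsewhere, and *Slc22a5*, a carnitine transporter gene, stood at 1.90 and 1.93 RPKM after IL-33 and at 0.067 and 0 after chronic HDM. *Slc22a21* was at 0.668 to 1.98 RPKM and *Gdf9* at 0 to 1.51 RPKM. *Leap2*, *Slc22a4*, *4933405E24Rik* and *Meikin* stayed under 1 RPKM in every library. Differences in this window were thus not of 1 direction, and the 4 cytokine genes in it spanned log2 differences from -2.31 to 2.23.

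**Figure D5:**
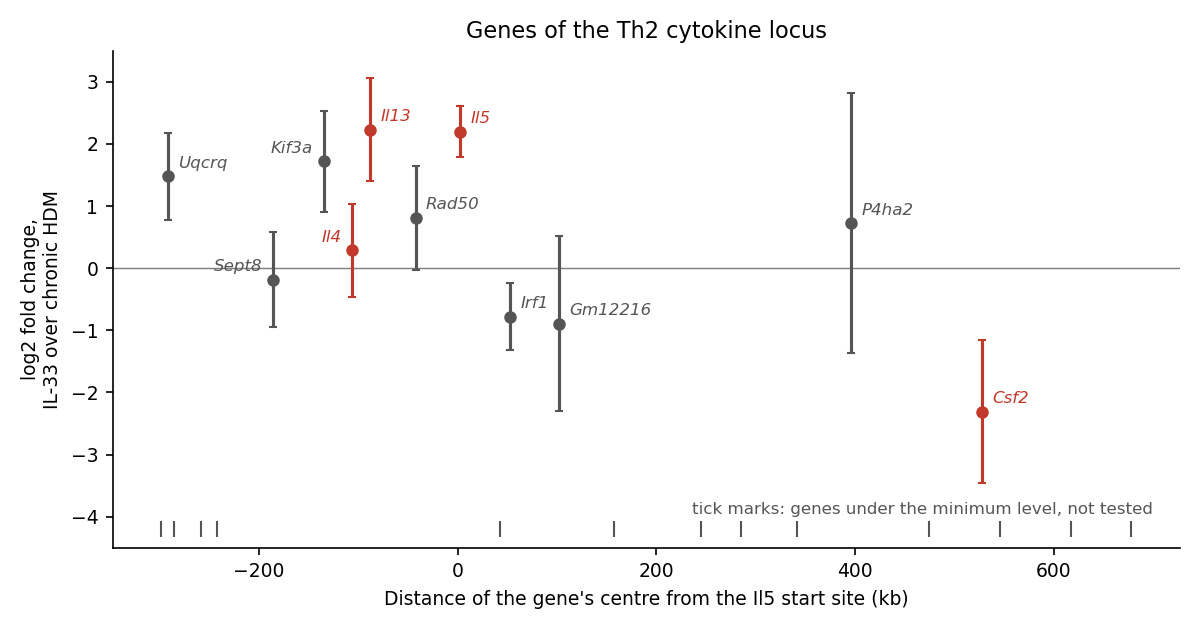
Fitted log2 difference, IL-33 over chronic HDM, with its 95% interval for the 11 genes tested in the Th2 locus window, against the distance of each gene's centre from the *Il5* start site in kb. Cytokine genes of the set are red and neighbours grey. *Il13* and *Il5* lie near 2.2 with *Il4* and *Rad50* beside them near or below 1, and *Csf2*, 528 kb away, lies at -2.31.

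Receptor chains for these cytokines were taken from a list of 17, of which 10 passed the minimum level and 2 were called. Both were higher after IL-33, the direction in which 2.80% of all genes were called. *Il2ra*, which encodes CD25, the high-affinity chain of the IL-2 receptor, stood at 432 and 376 RPKM after IL-33 and at 27.6 and 22.0 RPKM after chronic HDM (log2 difference 3.98 ± 0.22 SE, adjusted p = 0.00497, limma). The labels name the populations by CD25, so this difference may be part of how they were taken and is not a separate finding. *Il2rg*, the common gamma chain used by the receptors for IL-2, IL-4 and IL-9, stood at 2789 and 2174 RPKM after IL-33 and at 755 and 671 RPKM after chronic HDM (log2 difference 1.79 ± 0.17 SE, adjusted p = 0.00687, limma). *Il2rb*, the remaining IL-2 receptor chain, was at 136 to 180 RPKM in all 4 libraries with overlapping groups. IL-2 receptor RNA was therefore present in every library while *Il2* itself had at most 27 reads.

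The other receptors tested did not pass at either threshold. *Il9r*, the IL-9 receptor chain, stood at 25.7 and 32.8 RPKM after IL-33 and at 33.3 and 17.1 RPKM after chronic HDM, so the receptor was present in the libraries without *Il9* reads. *Il4ra* (16.7 and 19.6 against 38.9 and 24.0 RPKM), *Il10ra* (24.0 and 30.4 against 48.7 and 36.7 RPKM) and *Il10rb* (50.0 and 50.4 against 64.5 and 60.6 RPKM) were each lower in both IL-33 libraries, with adjusted p of 0.183, 0.176 and 0.340. *Il6ra* had 0.613 and 0 RPKM after IL-33 against 2.50 and 8.93 RPKM after chronic HDM (adjusted p = 0.0840), and *Il6st* and *Csf2ra* overlapped between groups. The median log2 difference of the 10 chains was -0.42, beside 0.28 over all genes.

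Several receptors were near or at 0. *Il5ra* and *Il13ra2* had no reads in any library, *Il13ra1* had 20 reads in IL-33 replicate 1 only, and *Flt3*, the receptor for Flt3 ligand, had 13 reads in IL-33 replicate 2 only. *Egfr*, the receptor for amphiregulin, stood at 4.79 and 1.41 RPKM after IL-33 and had no reads after chronic HDM, where *Areg* was higher. *Csf2rb2* stood at 3.60 and 2.61 RPKM after chronic HDM and had 1 read in the IL-33 libraries together, while *Csf2rb* stood at 0.338 and 0 RPKM after IL-33 and at 0.022 and 6.04 RPKM after chronic HDM. These are near-identical copies, and how the counting divided reads between them is uncertain.

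Other genes of the pathways were read from lists. Of 7 EGF family genes, *Areg* alone passed the minimum, *Hbegf* stayed at 1.30 RPKM or less and *Egf* at 0.253 RPKM or less, and 3 had no reads in any library. Of 31 transcription factor genes tested, 1 was called higher after IL-33 and 4 higher after chronic HDM, and 26 were not called. The shares of all genes called were 2.80% higher after IL-33 and 0.536% higher after chronic HDM. *Gata3*, the factor that defines ILC2s and drives *Il5* and *Il13*, stood at 14.9 and 18.9 RPKM after IL-33 and at 216 and 195 RPKM after chronic HDM (log2 difference -3.54 ± 0.23 SE, adjusted p = 0.00665, limma). *Gata3* thus ran opposite to *Il5* and *Il13*. Its locus carries the reporter, in a number of copies that by the labels differed between the groups, and the part of this in the value was not tested.

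The AP-1 genes *Fos*, *Jun* and *Junb* were higher after chronic HDM, with log2 differences of -2.93, -2.72 and -2.56 and adjusted p of 0.00874, 0.00737 and 0.0070 from limma. *Junb* reached 962 and 725 RPKM there against 116 and 171 RPKM after IL-33. Other genes of the AP-1 and bZIP family in the list were mixed. *Fosl2* was also higher after chronic HDM, at 1.955 and 1.236 RPKM after IL-33 against 6.705 and 7.88 RPKM. *Batf* ran the other way, at 522 and 435 RPKM after IL-33 against 218 and 254 RPKM (adjusted p = 0.0191, limma, past 0.05 only). So did *Nfil3*, at 136 and 109 RPKM against 46.0 and 37.5 RPKM, and *Maf* had overlapping groups. These genes were picked with their values in view. The factor gene called higher after IL-33 was *Nfkb1*, named here after its value had been seen, at 167 and 175 RPKM against 43.4 and 41.5 RPKM. Of 10 genes tested from a list of 12 for proteins that govern the decay of cytokine mRNA, *Zfp36l2*, a binding protein of AU-rich elements, was called, at 6.73 and 7.26 RPKM after IL-33 against 60.6 and 46.0 RPKM after chronic HDM (log2 difference -2.75 ± 0.30 SE, adjusted p = 0.00791, limma). In that direction 0.536% of all genes were called.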

How the data were processed

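RNA of BAL fluid ILC2s was compared between IL-33 and chronic HDM, with 2 libraries each. The authors prepared Smart-seq2 libraries without molecular identifiers, sequenced them as single reads of 51 bp and used HISAT2 for alignment to mm10, with 2.0.4 as the version given in the submitters' notes. They deposited RPKM values per gene that HOMER had made, headed FPKM in the files and counted over the exons of a single RefSeq transcript per gene. The study's own test was DESeq2 on counts, which were not used here. Genes were matched by symbol, and start sites were set against GENCODE vM21. The RefSeq start of *Csf2* lies upstream of the GENCODE start, so its promoter is not shown.

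Values were tested as log2(RPKM + 1) for the 9523 genes that averaged 2 RPKM or more, with limma (version 3.58.1, R 4.3.3; empirical Bayes with intensity trend, two-sided, Benjamini-Hochberg). Fold changes on this scale understate the change of low genes. Shares and ratios were tested by exact permutation over libraries. RPKM times exon length gave whole reads, within 0.1 of a read, for 99.8% to 100% of values of up to 20 reads, which gave depth and counting limits. Intervals and limits of 3 reads cover counting error only. The procedure was tested on simulated data.

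The members and lists (receptor chains, other cytokines, EGF family, transcription factors, mRNA decay, the Th2 locus window and markers of ILC2s and other cells) were chosen with earlier results of these data known. Genes named are all members, receptor chains and window genes, and from each other list up to 4 called genes with the largest change or, where none was called, the 3 of highest mean. Among markers of the other cells, eosinophil, neutrophil, epithelial and B cell lists summed to at most 76.0 RPKM in any library and T cell markers to at most 104 RPKM. Alternatives covered the pseudocount, minimum, scaling, variance model, threshold, replicate block and leaving out each library.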

Additional observations from a re-analysis of the deposited data

How the results depend on the processing

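The counts of called genes depended on the settings. Against 267 genes called higher after IL-33 and 51 higher after chronic HDM, 0 and 0 were called with a pseudocount of 0.1 RPKM, with no minimum, in limma without the trend and in limma-voom on recovered reads. There were 502 and 107 with a minimum mean of 5 RPKM, 148 and 119 under quantile normalization, 53 and 29 with scaling without 45S ribosomal RNA, and 1311 and 455 at an adjusted p under 0.05. Median-of-ratios scaling gave 85 genes higher after IL-33. The share of calls that were higher after IL-33 was 84.0% as reported, 68% under median-of-ratios scaling, 55.4% under quantile normalization and 64.6% without 45S ribosomal RNA, settings that moved the median log2 difference of all genes by -0.21, -0.29 and -0.26. Leaving out 1 library gave 0 to 1960 genes higher after IL-33 and 0 to 664 higher after chronic HDM, with 0 calls without either IL-33 library. A lone library is then assumed to vary like the other group.

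Of the cytokines, 0 were called higher after IL-33 with a pseudocount of 0.1 RPKM, with no minimum, without the trend and in limma-voom, and 1 (*Il5*) under median-of-ratios scaling and without 45S ribosomal RNA. Higher after chronic HDM were 2 at an adjusted p under 0.05. Leaving out 1 library gave 0 to 5 and 0 to 2. The 2 receptor chains fell to 0 in the same 4 settings and to 1 (*Il2ra*) under median-of-ratios scaling and without 45S ribosomal RNA (0 to 4 when leaving out 1 library). The count of 1 in the Th2 locus window became 0 in those 4 settings, 2 with a minimum mean of 5 RPKM, 5 at an adjusted p under 0.05, and 0 to 6 when leaving out 1 library.

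Of 143 fitted values of single members, 2 turned direction, both for *Il4*: -0.089 under quantile normalization and -0.0010 without IL-33 replicate 1 (up to 0.58 when leaving out another library). The adjusted p ranged from 1.27e-05 to 0.324 for *Il5*, 0.000314 to 0.324 for *Il9* and 0.000326 to 0.326 for *Il13*. The difference in the *Il5* share (28.9 percentage points) was 27.8 to 30.0 when leaving out 1 library. The difference in the log2 ratio of *Il13* to *Il5* (0.10) was -0.34 to 0.54. Differences in share, in percentage points, also turned direction for *Il6* (0.371 with other cytokines in the sum, and -3.11 to 0.630 when leaving out 1 library), for *Il10* (-0.331 to 2.82) and for *Il2* (-0.464 to 0.0094), where 1 chronic HDM library or the other was left out. The causes were not tested.

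Replicate numbers do not pair the samples: same-numbered deviations correlated at -0.038 over 9523 genes. The replicate block gave 987 genes higher after IL-33 and 267 higher after chronic HDM, 4 cytokines higher after IL-33, and 3 genes of the Th2 locus.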
